A study of Mus musculus with 8 samples.

Results

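The genes described here encode ubiquitin-specific proteases (USPs), the largest family of deubiquitinases, and were taken as every protein-coding gene on mouse chromosomes 1 to 19 whose name in GENCODE M21 starts with Usp and a number. This rule found 50 genes among 20722 protein-coding genes on the same chromosomes. The data were lists of H3K36me3 peaks from chromatin immunoprecipitation and sequencing (ChIP–seq) of i4F MEFs, mouse embryonic fibroblasts in which doxycycline induces OCT4, SOX2, KLF4 and MYC (OSKM). All libraries came from 1 preparation of cells (Clone 1 in the labels, MEF 1 in the study) from an embryo at embryonic day 13.5, and all cells were grown in iPSC medium for 72 h. The MEF library had neither doxycycline nor added vitamin B12, MEF B12 had 2 µM vitamin B12, OSKM had doxycycline, and OSKM B12 had both. The labels give 1 µg/ml doxycycline and the study's methods give 1 mg/ml. There was 1 H3K36me3 library, with its input, for a condition, so that differences could not be set against replicates and are given without p-values. The study's OSKM transgenic mice are of the i4F-B strain on a C57/BL6J background. The immunoprecipitation protocol in the labels writes H3K3me3 where the sample labels write H3K36m3.

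Ubiquitin is a small protein that is joined to lysines of other proteins, where it marks them for destruction by the proteasome or alters their partners and place in the cell. Deubiquitinases cut it off again, and most USPs do so with a cysteine in the active site. H3K36me3 is a histone mark that SETD2 lays down behind elongating RNA polymerase II, so that it lies over the bodies of transcribed genes, rises towards their 3′ ends and is low at promoters. USP genes are mostly expressed in many tissues, with a few exceptions in the germ line, the brain and immune cells.

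Most members of the family share a pattern in the coding sequence around the active-site cysteine, the Cys box. A pattern for this box was searched in the translated coding sequence of the principal transcript of each gene. It asked for cysteine after threonine, serine or tryptophan and before tyrosine, phenylalanine, tryptophan or cysteine, with a glutamine further on. Ahead of these it allowed alanine, asparagine, glycine, glutamine, methionine, threonine or lysine. How far such broad classes set the count was not tested. Of the 50 genes, 48 held the pattern. The 2 without it were Usp39, a splicing factor whose USP fold is known to lack the active site, and Usp6nl, a GTPase-activating protein for Rab GTPases that shares only the start of its name. In the longest transcripts of all 20722 genes, 140 (0.676%) held the pattern, of which 48 were USP genes and 92 were other genes. The pattern alone therefore does not single out the family. The 30 bases below were read from GRCm38.p6 (mm10) on the coding strand, with the cysteine codon in capitals, for the 5 genes with the highest H3K36me3 density, the gene with the largest difference between MEF and OSKM, and 5 genes from pairs or families in which some members carried no mark.
Usp19: ttagggaacaccTGCttcatgaatagcgtc
Usp36: ctgggtaacaccTGCttcctcaactccacc
Usp5: ctgggtaacagcTGCtatctcaactccgtg
Usp4: ctggggaacactTGCttcatgaactctgct
Usp22: ctggggaacacgTGTttcatgaactgcatc
Usp25: gtcggcaacaccTGCtggtttagtgcagtt
Usp44: ttaggaaatactTGCtatatgaattctgtt
Usp49: ctggggaataccTGCtacatgaactccatc
Usp29: ttgggaaatactTGTtacatgaattccatt
Usp43: catggcaacaccTGTttcatgaacgcggtg
Usp17la: acaggcaacagcTGCtacctgaatgcagcc

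These windows lie at chr9:108495657-108495686 (plus strand) for Usp19, chr11:118284926-118284955 (minus) for Usp36, chr6:124822564-124822593 (minus) for Usp5, chr9:108366843-108366872 (plus) for Usp4, chr11:61162947-61162976 (minus) for Usp22 and chr16:77050525-77050554 (plus) for Usp25. The other windows lie at chr10:93846518-93846547 (plus) for Usp44, chr17:47672834-47672863 (plus) for Usp49, chr7:6962039-6962068 (plus) for Usp29, chr11:67921704-67921733 (minus) for Usp43 and chr7:104860355-104860384 (plus) for Usp17la. All are exonic and coding. In Usp19, Usp36, Usp5, Usp4 and Usp22 the cysteine codon lay inside an H3K36me3 peak in all 4 libraries. In Usp25 it lay in a peak in MEF, MEF B12 and OSKM B12 and in none in OSKM. In Usp44, Usp49, Usp29, Usp43 and Usp17la it lay outside peaks in all 4 libraries. Among the 39 genes that held the box and carried the mark, the codon was in a peak in 30 genes in MEF, 30 in MEF B12, and 20 in OSKM against 29 in OSKM B12. No such count was made over codons of other genes. The mean covered share of all marked genes was also lower in OSKM (32.5%) than in MEF (47.5%).

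After removal of duplicates, the H3K36me3 libraries held between 29046913 (MEF B12) and 33399267 (OSKM) tags, and MACS2 called between 65474 and 69434 broad peaks in each. The OSKM library, the deepest, had the lowest coverage over genes in general, with a mean covered share of 32.5% over all 9619 marked genes against 47.5% in MEF, 50.4% in MEF B12 and 50.9% in OSKM B12. Each condition had its own single immunoprecipitation, and differences in its yield cannot be told apart from the treatment. Of 8 fibroblast marker genes, 8 were marked in MEF, 7 in MEF B12, and 7 in OSKM against 8 in OSKM B12. None of the 4 epithelial, 4 pluripotency and 4 blood markers was marked in any library, and 1 of 3 neural markers (Tubb3) was marked in the libraries other than OSKM. In a bulk sample, fewer cells with the mark and less of the mark per cell cannot be told apart.

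A gene was called marked where peaks covered at least 10% of the body of its longest protein-coding transcript in at least 1 library. By this rule 41 of the 50 USP genes (82.0%) were marked, beside 46.4% of all autosomal protein-coding genes. Among transcripts of at least 4 exons, 41 of 45 USP genes were marked, beside 54.7% of all genes. By library, 40 USP genes were marked in MEF (all genes, 43.3%), 40 in MEF B12 (44.7%), and 33 in OSKM (36.3%) against 40 in OSKM B12 (44.9%). Of the 41 marked genes, 33 were marked in all 4 libraries and 8 in some of them. The median marked USP gene body was 53.02 kb long, against 20.7 kb for all marked genes and 9.42 kb for the 9 unmarked USP genes.

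**Figure D1:**
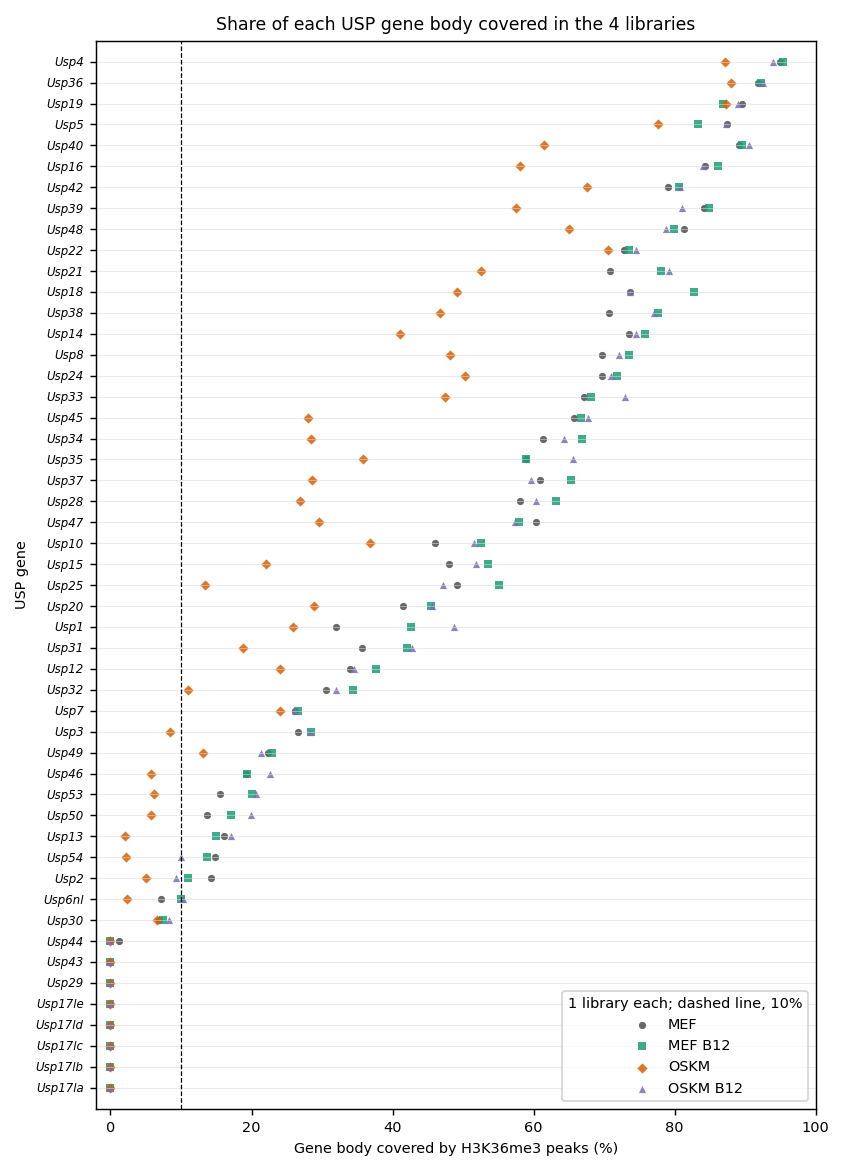
Share of each USP gene body covered by H3K36me3 peaks, in percent, for all 50 genes ordered by their mean, with 1 point per library and a dashed line at the 10% that counts as marked. The OSKM points lie left of the other libraries in most of the marked genes, and 7 genes at the bottom lie at 0 in all 4 libraries.

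Of the 9 unmarked genes, 7 had no peak at all. Usp17la, Usp17lb, Usp17lc, Usp17ld and Usp17le, near copies in a cluster on chromosome 7 that belong to a cytokine-inducible and germ-line family, had no peak base in any library. Part of their sequence cannot be read by unique alignment. Between 5.80% (Usp17la) and 49.4% (Usp17ld) of the 75-base words of their bodies occurred more than once on chromosome 7. Only exact copies on that chromosome were counted, so these shares are lower limits. The absence of the Usp17l genes from the peak lists thus holds for uniquely mapped reads only. Usp29, an imprinted and brain-enriched gene of 237 kb, and Usp43 had no peak base in any library either. Usp44, a histone H2B deubiquitinase and mitotic regulator, had 1 peak over 1.27% of its body, in MEF only, that began 98.7% of the way along the gene and ran past its end. A gene without a peak is one without enrichment detectable at this depth.

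Usp30, which encodes a deubiquitinase of the mitochondrial outer membrane, was unmarked by the rule with a covered share of 6.53% in OSKM, against 6.86% in MEF, 7.39% in MEF B12 and 8.29% in OSKM B12. Its longest protein-coding transcript is a model of 4 exons over 40.3 kb (chr5:114065514-114105851, plus strand) whose mRNA and coding ends the annotation tags as not found, and that overlaps another protein-coding gene over 64.6% of its length. The principal transcript, with 13 exons over 24.4 kb (chr5:114100315-114124720), was covered over 88.7% and 89.5% in MEF without and with B12, and 73.2% and 91.01% in OSKM without and with B12. With principal transcripts for all USP genes, an alternative chosen after seeing the data, 42 of the 50 genes were marked and Usp30 was the 1 gained. The status of Usp30 as unmarked therefore followed from the transcript chosen.

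The level of the mark on a gene was taken as its density, the authors' pileup per 1000000 tags over the bases in peaks, averaged over the whole gene body with bases outside peaks counted as 0. The median density of the 41 marked USP genes was 0.331 in MEF and 0.379 in MEF B12, against 0.133 in OSKM and 0.373 in OSKM B12. Over all 9619 marked genes the medians were 0.135 in OSKM, against 0.274 in MEF, 0.325 in MEF B12 and 0.344 in OSKM B12. The USP genes ranged in MEF from 0.0348 (Usp6nl) to 1.02 (Usp19). The order of the genes was nearly kept, with a Spearman rho of 0.99 between MEF and MEF B12, 0.97 between MEF and OSKM and 0.99 between MEF and OSKM B12 across the 41 genes, which share the library depth of each point.

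The 5 genes with the highest mean density were Usp19, Usp36, Usp5, Usp4 and Usp22. The density of Usp19, an endoplasmic reticulum-anchored deubiquitinase, was 1.02 and 1.18 in MEF without and with B12, and 0.657 and 1.29 in OSKM without and with B12. It was higher than 99.9% of all marked genes in MEF and 99.9% in OSKM. Its body of 11.5 kb (chr9:108490840-108502337) held 26 exons and was crossed by 1 unbroken peak in each library, over 89.6% in MEF and 86.9% in MEF B12, against 87.3% in OSKM and 89.1% in OSKM B12. Usp36, a nucleolar deubiquitinase, followed with a density of 0.546 in OSKM, against 0.804 in MEF, 0.957 in MEF B12 and 1.11 in OSKM B12. Both stayed near the top of all genes in each library while their own level in OSKM was below that in the other libraries.

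Usp5, which takes apart free ubiquitin chains, had a density of 0.781 and 0.866 in MEF without and with B12, and 0.477 and 1.01 in OSKM without and with B12. Usp4, a regulator of TGF-β receptor and spliceosomal proteins, had a density of 0.759 in MEF and 0.914 in MEF B12, against 0.486 in OSKM and 0.899 in OSKM B12. Its covered share, the highest of the family in MEF, was 87.2% in OSKM, against 94.9% in MEF, 95.3% in MEF B12 and 93.97% in OSKM B12. Usp22, the deubiquitinase of the SAGA complex, acts on histone H2B, and its density was 0.698 and 0.835 in MEF without and with B12, and 0.4598 and 0.876 in OSKM without and with B12. In each of these 5 genes OSKM was lowest, and MEF was lower than both B12 libraries.

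The first comparison asked what induction of OSKM without added B12 did to the mark on these genes. The density was lower in OSKM than in MEF in 41 of 41 marked USP genes, beside 96.8% of all marked genes, and so was the covered share. OSKM had the lowest density of the 4 libraries in 41 of 41 genes, beside 95.9% of all marked genes. The 8 genes marked in some libraries only were all below the 10% limit in OSKM. They were counted through other libraries, so a lower OSKM value was partly set by the rule, which also chose all marked genes. The 33 genes marked in all 4 libraries were lower in OSKM as well. The median log2 difference, with 0.05 added to each density, was -0.75 (quartiles -0.99 and -0.62, n = 41 genes), and it was -0.70 over all marked genes. At least a 2-fold lower density was seen in 10 of 41 genes (24.4%), beside 18.5% of all marked genes. These 10 were Usp25, Usp45, Usp37, Usp32, Usp34, Usp3, Usp47, Usp28, Usp14 and Usp15. Of them, Usp3 was below the 10% limit in OSKM. Usp15 lay just inside the 2-fold limit, at a log2 difference of -1.0003, and Usp18 just outside, at -0.9919.

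These counts depended on how weak signal was treated. With a pseudocount of 0.01 in place of 0.05, 20 of 41 USP genes and 39.8% of all marked genes were at least 2-fold lower. With only the peaks whose −log10 q was at least 5, 33 USP genes were still marked, of which 25 were at least 2-fold lower, beside 68.2% of all genes marked by such peaks. These 25 held only 5 of the 10 genes above (Usp14, Usp25, Usp37, Usp45 and Usp47). Of the other 5, Usp3 and Usp32 were no longer marked, and Usp15, Usp28 and Usp34 were less than 2-fold lower. Usp14 was less than 2-fold lower over the whole span of the gene, and Usp14 and Usp15 were so when the pileup was not divided by tags.

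**Figure D2:**
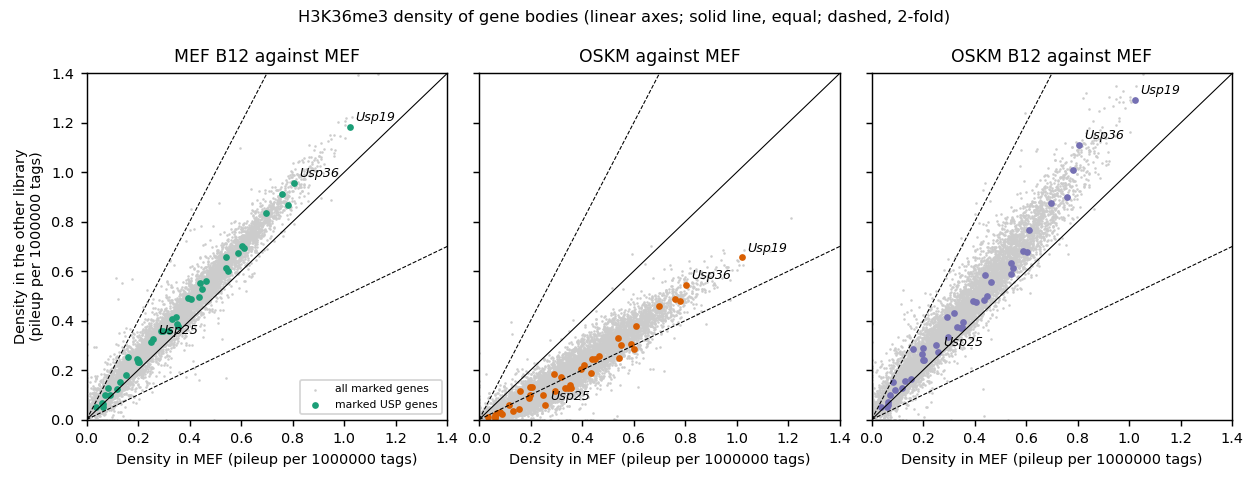
Density of the H3K36me3 mark in MEF B12, OSKM and OSKM B12 (vertical axes, pileup per 1000000 tags) against MEF (horizontal axes), 1 library each, for the 41 marked USP genes in colour and all marked autosomal genes in grey. The USP genes lie within the cloud of all genes, below the line of equality in OSKM and mostly above it in both B12 libraries.

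By the log2 difference with the pseudocount, the largest differences were in Usp25, Usp45 and Usp37. Usp25, a deubiquitinase of immune signalling, spans 103 kb (chr16:77013706-77116780), and its density was 0.257 in MEF and 0.325 in MEF B12, against 0.0588 in OSKM and 0.274 in OSKM B12. Between OSKM and MEF this was 0.229-fold (95% counting interval 0.211 to 0.249), a log2 difference of -1.49. Its covered share was 13.4% in OSKM, against 49.2% in MEF, 55.1% in MEF B12 and 47.2% in OSKM B12. In OSKM, 20 short peaks were left, the longest of 1294 bases, where MEF had 27 peaks with a longest of 8278 bases.

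Usp45, which has been tied to DNA repair, spans 61.6 kb and had a density of 0.355 and 0.379 in MEF without and with B12, and 0.126 and 0.392 in OSKM without and with B12. OSKM was 0.356-fold (95% counting interval 0.3295 to 0.384) of MEF. Usp37, which deubiquitinates cyclin A, had a density of 0.347 in MEF and 0.416 in MEF B12, against 0.129 in OSKM and 0.368 in OSKM B12, and OSKM was 0.371-fold (95% counting interval 0.3499 to 0.393) of MEF. Other genes overlap 24.6% of the Usp37 body. In all 3 genes the OSKM value stood apart from the other 3 libraries, which lay close together.

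The smallest log2 differences, with the pseudocount, were in Usp1, Usp20 and Usp7. By the ratio without it, Usp36 (0.679-fold) lay closer to 1 than Usp20, and Usp22 (0.659-fold) closer than Usp7. Usp1, which deubiquitinates FANCD2 and PCNA, is a short gene of 11.7 kb with a density of 0.114 in OSKM, against 0.1604 in MEF, 0.251 in MEF B12 and 0.287 in OSKM B12. OSKM was 0.713-fold (95% counting interval 0.579 to 0.877) of MEF, a log2 difference of -0.36. Usp20, a deubiquitinase of the endoplasmic reticulum and of receptors, had a density of 0.198 and 0.234 in MEF without and with B12, and 0.133 and 0.289 in OSKM without and with B12, with OSKM at 0.672-fold (95% counting interval 0.607 to 0.744) of MEF. Usp7, which deubiquitinates p53 and MDM2, had a density of 0.204 in MEF and 0.233 in MEF B12, against 0.132 in OSKM and 0.242 in OSKM B12, with OSKM at 0.647-fold (95% counting interval 0.607 to 0.689) of MEF.

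Usp7 differed little in covered share, with 23.99% in OSKM, against 26.1% in MEF, 26.6% in MEF B12 and 26.2% in OSKM B12. Its longest transcript spans 103 kb (chr16:8689595-8792308, minus strand), and in MEF, OSKM and OSKM B12 no peak lay in its first 73.8%. The principal transcript starts 53.97 kb further downstream and spans 48.2 kb. Over that transcript the covered share was 54.5% and 55.5% in MEF without and with B12, and 49.98% and 54.7% in OSKM without and with B12, and the log2 difference between OSKM and MEF was -0.56 in place of -0.48.

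**Figure D3:**
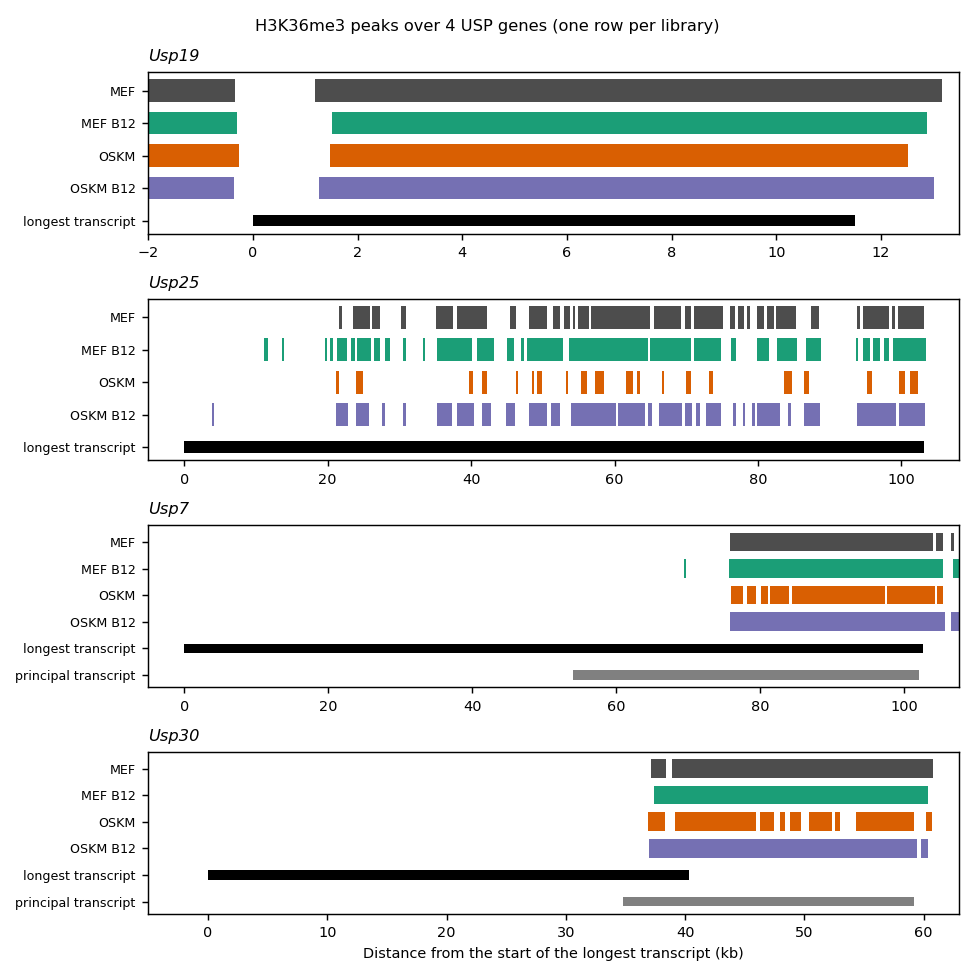
H3K36me3 peaks (coloured bars, 1 row per library) over Usp19, Usp25, Usp7 and Usp30, against the distance from the start of the longest transcript in kb, with that transcript in black and, for Usp7 and Usp30, the principal transcript in grey. Usp19 keeps 1 unbroken peak in OSKM, Usp25 breaks into short peaks in OSKM, and the peaks of Usp7 and Usp30 lie over their principal transcripts.

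Where the density of a gene is close to the pseudocount, the log2 difference understates the ratio. Without it, the lowest ratio of OSKM to MEF belonged to Usp13, the paralogue of Usp5, with 0.127-fold (95% counting interval 0.104 to 0.154), and the next lowest to Usp54, with 0.147-fold (95% counting interval 0.119 to 0.182). Bases outside peaks counted as 0, so that stretches not called in OSKM lowered these ratios in full. The highest pileup of a peak on Usp13 was 15.74 in MEF and 15.63 in OSKM. Neither Usp13 nor Usp54 was marked with the peaks of −log10 q of at least 5. The median ratio over the 41 genes was 0.506. None of the 41 counting intervals of this ratio held 1. These intervals cover the counting of tags alone, not the spread between cultures or repeat immunoprecipitations.

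The lower density had several parts. The mean covered share of the 41 genes was 53.9% in MEF and 56.3% in MEF B12, against 36.3% in OSKM and 55.8% in OSKM B12, so that OSKM was at 0.674 of MEF, beside 0.684 for all marked genes. Over the bases called in all 4 libraries, which every marked USP gene had, the pileup per 1000000 tags in OSKM was at a median of 0.774 of MEF, with a range over genes from 0.661 to 0.939. Each base took the 1 pileup value of its peak, so that peaks of unlike length were set side by side. Only bases still called in OSKM entered. The top of the range was Usp54, with 1.29% of its body in such bases. The longest domains were also shorter. The longest peak on a gene had a median length of 11923 bases in MEF, 12707 in MEF B12, and 3513 in OSKM against 10564 in OSKM B12. The summed number of peaks on the 41 genes was highest in OSKM, at 486, against 402 in MEF, 374 in MEF B12 and 413 in OSKM B12. By gene, 22 had more peaks in OSKM than in MEF and 16 had fewer. Usp24, the gene with 68 exons, had 12 peaks in MEF and 41 in OSKM, and Usp16, a histone H2A deubiquitinase, had 1 and 12. Usp13 went the other way, with 23 and 5. Lengths and numbers of peaks were not computed over all marked genes.

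**Figure D4:**
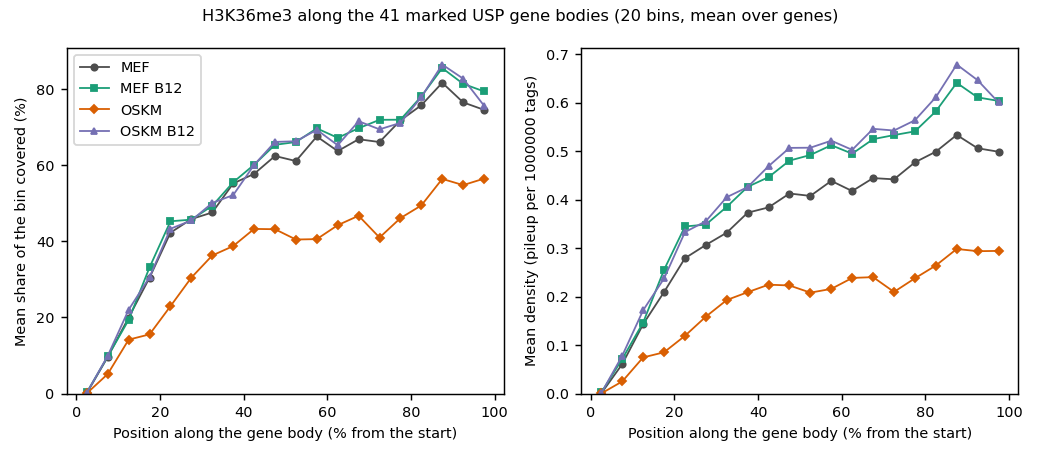
Mean covered share (left, percent) and mean density (right, pileup per 1000000 tags) in 20 bins along the bodies of the 41 marked USP genes, from the start to the end, with 1 line per library. All 4 lines start near 0 and climb to a peak in the bins nearest the end, and the OSKM line runs below the others in every bin.

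Along the gene body, the mark was low at the start and highest near the end in all 4 libraries. In the 20% of the body nearest the start, the mean covered share was 8.73% in OSKM, against 15.05% in MEF, 15.6% in MEF B12 and 15.7% in OSKM B12. In the 20% nearest the end it was 77.2% and 81.1% in MEF without and with B12, and 54.3% and 80.7% in OSKM without and with B12. The first peak lay a median of 16.6% of the body from the start in MEF, 16.6% in MEF B12, and 24.3% in OSKM against 16.5% in OSKM B12, and it was further from the start in OSKM than in MEF in 30 of 41 genes. Peaks ran past the annotated end in 27 genes in MEF, 31 in MEF B12, and 22 in OSKM against 26 in OSKM B12. Of the 861 exons of the marked genes, peaks touched 83.04% in MEF, 83.04% in MEF B12, and 60.3% in OSKM against 82.7% in OSKM B12. These positions, shares and counts were not computed over all marked genes, so they cannot be read as traits of the USP genes.

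Body length went with the difference between MEF and OSKM. Across the 41 genes, the Spearman rho of body length with the log2 difference was -0.47, and across all 9619 marked genes it was -0.16. With the ratio without the pseudocount, rho was -0.56 across the 41 genes. Across the 9066 of all marked genes in that calculation it was -0.34. That calculation left out part of the 9619 genes and none of the 41, so these rho values cover sets chosen differently. These are descriptions across genes that share 2 libraries, and genes are not independent replicates. Of the 21 USP genes at or above the median length, 9 were at least 2-fold lower in OSKM, and of the 20 shorter ones 1 was (Usp14). Of all marked genes in the same length ranges, 18.8% and 18.5% were at least 2-fold lower. Density moved with length as well, with a rho of -0.44 between length and MEF density across the 41 genes, while MEF density and the log2 difference had a rho of 0.10. Usp7 and Usp6nl were long by this measure, at 103 kb and 124 kb, with small log2 differences of -0.48 and -0.49. The principal transcript of Usp7 is shorter than the median length.

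**Figure D5:**
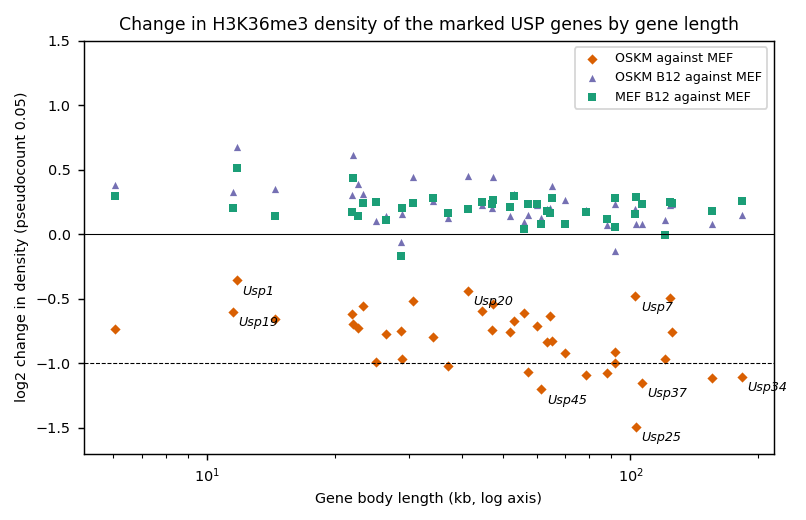
Log2 difference in density of OSKM, OSKM B12 and MEF B12 from MEF (vertical axis, pseudocount 0.05) against gene body length (horizontal axis, kb, log scale) for the 41 marked USP genes, 1 library per condition. The OSKM points lie higher for short genes such as Usp1 and lower for long ones such as Usp25, Usp37 and Usp34, while the points of both B12 libraries lie near or above 0.

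The second comparison asked what vitamin B12 added during OSKM induction did. With B12, OSKM cells had the higher density in 41 of 41 USP genes, beside 98.8% of all marked genes. Usp6nl was marked in OSKM B12 alone. Usp3, Usp13, Usp46, Usp50, Usp53 and Usp54 were marked in OSKM B12 but not in OSKM. For these genes a higher OSKM B12 value was partly set by the rule for marked genes. Usp3, Usp13, Usp46 and Usp50 were also among the 2-fold calls given next. The median log2 difference was 1.03 (quartiles 0.92 and 1.19, n = 41 genes), beside 0.98 over all marked genes. A density at least 2-fold higher was seen in 22 of 41 genes (53.7%), beside 46.2% of all marked genes. This count was 34 with a pseudocount of 0.01, beside 73.4% of all marked genes, and 14 when the pileup was not divided by the number of tags, beside 28.4%. In the latter setting Usp1, Usp5, Usp16, Usp18, Usp21, Usp35, Usp38 and Usp40 fell outside the limit. Over the bases called in all 4 libraries, with 1 pileup value per peak as above, the pileup per 1000000 tags was a median of 1.46 times that in OSKM. This comparison and the one of OSKM with MEF share the OSKM library, so that a low OSKM library enters both.

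By the log2 difference with the pseudocount, the largest differences were in Usp25 (1.57), Usp45 (1.33) and Usp50 (1.31). By the ratio without it, Usp13 came first, with 9.04-fold (95% counting interval 7.43 to 11.01), before Usp54 (5.71-fold), Usp46 (4.95-fold), Usp50 (4.89-fold) and Usp6nl (4.84-fold), all with low densities in OSKM. Of these, Usp13, Usp54, Usp46 and Usp6nl were no longer marked with the peaks of −log10 q of at least 5. In Usp25 the density in OSKM B12 was 4.66-fold (95% counting interval 4.29 to 5.06) that in OSKM, and in Usp45 it was 3.105-fold (95% counting interval 2.88 to 3.35). The smallest log2 differences with the pseudocount were in Usp7 (0.68), Usp2 (0.69), a deubiquitinase of MDM2 and cyclin D1, and Usp49 (0.71), a histone H2B deubiquitinase. Without it, the ratio was 1.83-fold (95% counting interval 1.72 to 1.95) in Usp7, 3.44-fold (95% counting interval 2.54 to 4.66) in Usp2 and 2.17-fold (95% counting interval 1.92 to 2.45) in Usp49, and the lowest ratios after Usp7 were in Usp4 (1.85-fold), Usp22 and Usp48 (both 1.91-fold) and Usp19 (1.97-fold). Usp49 had a density of 0.118 in MEF and 0.122 in MEF B12, against 0.0595 in OSKM and 0.129 in OSKM B12. The densities of Usp25 and Usp45 in OSKM B12 lay close to those in the MEF and MEF B12 libraries.

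Usp50 stood out for the source of its signal. Its density was 0.03099 in OSKM, against 0.0815 in MEF, 0.128 in MEF B12 and 0.151 in OSKM B12. Its covered share was 13.6% and 17.1% in MEF without and with B12, and 5.75% and 19.9% in OSKM without and with B12. Usp50 (minus strand) and Usp8 (plus strand), an endosomal deubiquitinase of receptors, face each other on chromosome 2 with 2124 bases between their ends. In each library 1 peak ran from the 3′ part of Usp8 across this gap into the 3′ end of Usp50, and it was 18750 bases long in MEF, 19039 in MEF B12, and 3734 in OSKM against 21107 in OSKM B12. It held 73.2% of the Usp50 bases in peaks in MEF, 89.1% in MEF B12, and all of them in OSKM and OSKM B12. The first 80.1% of the Usp50 body, counted from its start, held no peak in any library. Usp8 itself had a density of 0.448 in MEF and 0.527 in MEF B12, against 0.244 in OSKM and 0.5005 in OSKM B12.

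The third comparison asked what B12 did without OSKM. The density was higher in MEF B12 than in MEF in 39 of 41 USP genes, beside 90.5% of all marked genes, and the median log2 difference was 0.21, the same to 2 decimals as over all marked genes (0.21). No USP gene differed by 2-fold, beside 1.53% of all marked genes. The largest log2 difference with the pseudocount was in Usp1, where MEF B12 was 1.57-fold (95% counting interval 1.31 to 1.87) of MEF. The exceptions were Usp2, at 0.797-fold (95% counting interval 0.642 to 0.989) of MEF, and Usp13, at 0.992-fold (95% counting interval 0.899 to 1.09). In 4 genes (Usp13, Usp46, Usp49 and Usp54) the counting interval of the ratio held 1. When the pileup was not divided by tags, the median log2 difference was 0.06, MEF B12 being the smallest library. With only the peaks of −log10 q of at least 5, 5 of 33 USP genes differed by 2-fold, beside 15.6% of all genes marked by such peaks.

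Against MEF, the density in OSKM B12 was higher in 39 of 41 USP genes, beside 90.9% of all marked genes, with a median log2 difference of 0.21 and 0.26 over all marked genes. No USP gene differed by 2-fold, beside 2.41% of all marked genes. With the pseudocount, Usp1 had the largest log2 difference, with 0.68, and Usp54 the lowest, with -0.13. Usp2 was the other gene with a lower density in OSKM B12 than in MEF.

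By role, the 7 histone deubiquitinases held 6 marked genes, beside 46.4% of all genes. Of the 6, 1 was at least 2-fold lower in OSKM than in MEF (Usp3, which acts on H2A and H2B), beside 18.5% of all marked genes. In OSKM B12, 3 were at least 2-fold higher than in OSKM (Usp3, Usp16 and Usp21), beside 46.2% of all marked genes. With the peaks of −log10 q of at least 5, Usp3 was no longer marked. Usp16 and Usp21 were less than 2-fold higher in OSKM B12 when the pileup was not divided by tags. Usp3 had a density of 0.0346 in OSKM, against 0.12999 in MEF, 0.153 in MEF B12 and 0.155 in OSKM B12, and its covered share of 8.46% in OSKM was below the 10% limit that the other 3 libraries passed. In the pair Usp44 and Usp49, both H2B deubiquitinases, Usp44 was near or at 0 and Usp49 was covered over 22.4% and 22.9% in MEF without and with B12, and 13.1% and 21.3% in OSKM without and with B12.

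Among the genes whose proteins bind the cofactor WDR48, all 3 (Usp1, Usp12 and Usp46) were marked, beside 46.4% of all genes. None was 2-fold lower in OSKM, beside 18.5% of all marked genes. In OSKM B12, 2 were at least 2-fold higher than in OSKM (Usp1 and Usp46), beside 46.2% of all marked genes. Usp1 was less than 2-fold higher when the pileup was not divided by tags, and Usp46 was not marked by the stricter peaks. Usp12 and Usp46 encode close paralogues. Usp12 had a density of 0.198 in MEF and 0.242 in MEF B12, against 0.101 in OSKM and 0.2401 in OSKM B12. Usp46 had a density of 0.0238 in OSKM, against 0.0898 in MEF, 0.0974 in MEF B12 and 0.118 in OSKM B12. Usp12 was above Usp46 in every library, and Usp46 was covered over 19.2% and 19.3% in MEF without and with B12, and 5.81% and 22.6% in OSKM without and with B12, below the limit in OSKM alone. Wdr48 itself, which encodes the cofactor, was marked in all 4 libraries.

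Among the 6 genes of p53 and the cell cycle, 5 were marked, beside 46.4% of all genes. Of the marked genes, 2 were at least 2-fold lower in OSKM (Usp37 and Usp28, which binds 53BP1), beside 18.5% of all marked genes. The same 2 were at least 2-fold higher in OSKM B12 than in OSKM, beside 46.2% of all marked genes. Usp37 and its relative Usp29 formed a pair in which 1 gene was marked, with Usp29 at 0 and Usp37 covered over 60.98% in MEF and 65.4% in MEF B12, against 28.5% in OSKM and 59.7% in OSKM B12. Usp2 was covered over 4.99% in OSKM, against 14.2% in MEF, 11.02% in MEF B12 and 9.34% in OSKM B12, past the limit in both MEF libraries. A predicted gene overlaps the whole of its body, so its signal cannot be assigned to Usp2 alone. Its principal transcript, of 9.54 kb, was covered over 42.5% and 33.1% in MEF without and with B12, and 14.96% and 24.6% in OSKM without and with B12. On that transcript Usp2 passed both limits, with log2 differences of -1.24 between OSKM and MEF and 1.08 between OSKM B12 and OSKM, which makes 3 genes of this group in place of 2. Usp10, a cytoplasmic deubiquitinase of p53, likewise lies inside a predicted gene over 98.98% of its body and had a density of 0.291 in MEF and 0.359 in MEF B12, against 0.184 in OSKM and 0.413 in OSKM B12.

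Among the 3 genes of free ubiquitin and the proteasome, Usp14, which binds the proteasome, was at least 2-fold lower in OSKM, and all 3 were at least 2-fold higher in OSKM B12 than in OSKM, beside 18.5% and 46.2% of all marked genes. Usp5 lay just inside that limit, at a log2 difference of 1.0049, and fell outside it with the peaks of −log10 q of at least 5 and when the pileup was not divided by tags. Usp13 was no longer marked by those peaks. Usp14, outside the 2-fold lower limit under the settings named above, had a density of 0.1901 in OSKM, against 0.436 in MEF, 0.495 in MEF B12 and 0.482 in OSKM B12. Usp13, of 121 kb, was covered over 16.1% and 14.96% in MEF without and with B12, and 2.02% and 17.1% in OSKM without and with B12, with 23 peaks in MEF and 5 peaks in OSKM. The median log2 difference of these 3 genes between OSKM and MEF was -0.97.

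Among the 4 signalling genes, which act in the TGF-β and Wnt pathways among others, 3 were at least 2-fold lower in OSKM (Usp15, Usp34 and Usp47) and the same 3 at least 2-fold higher in OSKM B12 than in OSKM, beside 18.5% and 46.2% of all marked genes. With the peaks of −log10 q of at least 5, Usp15 and Usp34 were less than 2-fold lower in OSKM, and so was Usp15 with the pileup not divided by tags. Usp34, a regulator of axin and the longest marked USP gene at 184 kb and 80 exons, had a density of 0.331 in MEF and 0.406 in MEF B12, against 0.128 in OSKM and 0.373 in OSKM B12. Usp4 and its paralogue Usp15 differed here, with a log2 difference between OSKM and MEF of -0.59 in Usp4 (44.7 kb) and -1.0003 in Usp15 (91.99 kb).

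Among the 7 genes of endosomes, endoplasmic reticulum and mitochondria, 6 were marked, beside 46.4% of all genes. Of the marked genes, 1 was at least 2-fold lower in OSKM (Usp32), beside 18.5% of all marked genes. In OSKM B12, 2 were at least 2-fold higher than in OSKM (Usp32 and Usp35), beside 46.2% of all marked genes. Usp35 was less than 2-fold higher when the pileup was not divided by tags. Usp32, no longer marked with the stricter peaks, had a density of 0.0441 in OSKM, against 0.153 in MEF, 0.1801 in MEF B12 and 0.165 in OSKM B12. Usp39, the splicing factor, passed neither limit and had a density of 0.5504 and 0.5998 in MEF without and with B12, and 0.301 and 0.613 in OSKM without and with B12. Of the 7 genes of the immune and germ line group, 2 were marked, beside 46.4% of all genes. These were Usp18, which removes the ubiquitin-like ISG15, and Usp25. The unmarked ones were the Usp17l copies of 1 cluster described above, which unique alignment reads only in part. Usp18 had a density of 0.543 in MEF and 0.655 in MEF B12, against 0.248 in OSKM and 0.587 in OSKM B12, with log2 differences of -0.99 between OSKM and MEF and 1.10 between OSKM B12 and OSKM.

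The 11 genes outside these groups held 10 marked ones, beside 46.4% of all genes. Of the marked genes, 1 was at least 2-fold lower in OSKM (Usp45), beside 18.5% of all marked genes. In OSKM B12, 5 were at least 2-fold higher than in OSKM (Usp31, Usp38, Usp40, Usp45 and Usp50), beside 46.2% of all marked genes. Usp38 and Usp40 were less than 2-fold higher with the pileup not divided by tags, and Usp50 over the whole span of the gene. Usp31 was covered over 18.8% in OSKM, against 35.7% in MEF, 42.01% in MEF B12 and 42.8% in OSKM B12, while its relative Usp43 was at 0. Usp53 and Usp54, related genes, were both below the limit in OSKM. Usp53 was covered over 15.5% and 20.1% in MEF without and with B12, and 6.13% and 20.6% in OSKM without and with B12. Usp54 was covered over 14.8% in MEF and 13.7% in MEF B12, against 2.18% in OSKM and 10.01% in OSKM B12. Usp6nl, which is no deubiquitinase, was marked in OSKM B12 alone, with a covered share of 2.32% in OSKM, against 7.18% in MEF, 9.97% in MEF B12 and 10.3% in OSKM B12. By its highest library, Usp6nl was the gene just inside the 10% limit and Usp30 the gene just outside.

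For comparison within the ubiquitin system, 31 of 34 other deubiquitinase genes were marked, 5 were at least 2-fold lower in OSKM than in MEF, and 16 were at least 2-fold higher in OSKM B12 than in OSKM. Of all genes 46.4% were marked, and of all marked genes 18.5% and 46.2% passed these limits. Their median log2 differences in these comparisons were -0.72 and 1.03. Bap1, which encodes the histone H2A deubiquitinase BAP1, had the highest mean density of them, and Uchl1, Otud1 and Otud7a had no peak base. Of 8 genes for partners of USPs, 8 were marked, 2 were at least 2-fold lower in OSKM (Gmps, for a partner of USP7, and Eny2, for a subunit of the SAGA module) and 5 were at least 2-fold higher in OSKM B12 than in OSKM, beside 46.4% of all genes marked and 18.5% and 46.2% of all marked genes. Of the 4 ubiquitin genes, 3 were marked and 1 was at least 2-fold lower in OSKM (Rps27a), beside the same 46.4% and 18.5%. Ubb was unmarked.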

How the data were processed

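Peak lists of 4 H3K36me3 ChIP–seq libraries were analysed. The 4 inputs served as the controls of the peak caller. Per the study's methods and the labels, reads were aligned to mm10 by the authors (Bowtie 0.12.9, unique hits), who merged runs, removed duplicates and called broad peaks with MACS2 2.2.6 in each library separately, with q-value cut-offs of 0.05 and 0.1. In the deposited lists, the signal of a peak is its pileup, a count of extended fragments. The fold enrichment in the deposited lists is a ratio to the local input and was not used. The authors' −log10 p-value and −log10 q-value served to rank or filter peaks in alternatives only.

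Gene bodies were the longest protein-coding transcripts of GENCODE M21. Covered share, density and log2 differences (pseudocount 0.05) were computed with Python 3.11, numpy 2.4.6, pandas 2.3.3 and scipy 1.17.1, and figures with matplotlib 3.10.9. Density is the sum over peaks of pileup times overlapping bases, divided by the body length and by the tags per 1000000. A 2-fold difference over marked genes stood for a call, with no test. Counting intervals of ratios came from the tags estimated as pileup times bases over the fragment length (288 to 292 bases). They cover counting error only. Overlaps were checked against a per-base count in 200 drawn cases, and 0 differed.

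Named in full were the 5 genes of highest mean density, the 3 with the largest and the 3 with the smallest difference from MEF to OSKM and from OSKM to OSKM B12, genes past 10% in some libraries only, and pairs of relatives with 1 marked gene, with Usp12 and Usp46. Other members were added after their values were seen, to show single points. The members and gene lists were chosen with earlier results of these data known. The alternatives were peaks of −log10 q of at least 5, the same number of peaks per library (65473), bodies without bases of other genes, whole gene spans, no Usp6nl, a 25% limit, a pseudocount of 0.01 and pileup not divided by tags. Principal transcripts (APPRIS tags in GENCODE) were added after seeing the data. Coding bases were read from the GRCm38.p6 genome.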

Additional observations from a re-analysis of the deposited data

Results flagged for a closer look

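Usp2 and Usp13 differed in direction between the B12 comparisons. Usp2 had a lower density in MEF B12 than in MEF (log2 difference -0.17) and a higher one in OSKM B12 than in OSKM (log2 difference 0.69). Usp13 had a log2 difference of -0.0066 between MEF B12 and MEF and of 1.08 between OSKM B12 and OSKM. With 1 library per condition, neither difference between the comparisons was tested. For Usp13 the counting interval of the ratio of MEF B12 to MEF held 1, and for Usp2 it did not.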

How the results depend on the processing

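No paired analysis was possible because no group held more than 1 library. Over 9 alternatives to 7 results, 50 of 61 values moved by less than the counting error of a single gene or, for counts, by at most 1.5 times, and no difference reversed. Some alternatives could move little. The same number of peaks per library left all 7 results unchanged, and leaving out Usp6nl removed 1 gene. The limit of 1.5 times also let 33 marked genes stand as unmoved from 41. With peaks of −log10 q of at least 5, 33 genes were marked, the median log2 difference was -1.65 between OSKM and MEF and 2.32 between OSKM B12 and OSKM (all marked genes, -1.83 and 2.49), 25 genes were 2-fold lower in OSKM and 5 differed 2-fold in MEF B12. With a pseudocount of 0.01 the medians were -0.92 and 1.23, with 20 genes 2-fold lower in OSKM and 34 2-fold higher in OSKM B12. With pileup not divided by tags the medians were 0.90 between OSKM B12 and OSKM and 0.0619 between MEF B12 and MEF, and 14 genes were 2-fold higher in OSKM B12. This scaling moved the median of all marked genes by -0.13, -0.14 and -0.11 for OSKM B12 against OSKM, MEF B12 against MEF and OSKM B12 against MEF. A smaller pseudocount enlarges differences of weak genes by construction. The filter on q was applied to each library on its own, and bases of dropped peaks counted as 0. A stretch dropped in OSKM alone thus enlarges the difference in full. How much of the larger differences under this filter came from such stretches was not tested. Leaving out a library leaves no comparison. Without bases of other genes, Usp10 and Usp2 were no longer marked and Usp30 was, and Usp2 had no bases left.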

Other observations

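The rule left out 6 USP genes on the sex chromosomes, whose values are given here as observed in 1 library per condition. Usp9x, a large gene of 102 kb on the X chromosome that encodes a broadly acting deubiquitinase, was covered over 64.2% and 66.5% in MEF without and with B12, and 18.3% and 63.4% in OSKM without and with B12, with a density of 0.255 in MEF and 0.303 in MEF B12, against 0.0601 in OSKM and 0.266 in OSKM B12. Its log2 difference was -1.47 between OSKM and MEF and 1.52 between OSKM B12 and OSKM, so that it was close to Usp25, the autosomal gene with the largest difference. Usp11, also on the X chromosome, was covered over 17.7% in OSKM, against 44.4% in MEF, 44.6% in MEF B12 and 41.8% in OSKM B12, with a density of 0.168 and 0.184 in MEF without and with B12, and 0.0672 and 0.187 in OSKM without and with B12. The autosomal paralogues of Usp11 are Usp4 and Usp15. Usp26, Usp27x and Usp51 on the X chromosome and Usp9y on the Y chromosome had no peak base in any library.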
